A study of Homo sapiens with 26 samples.

Results

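The 52 genes described here act in the G2 phase of the cell cycle and in mitosis. They form a named list, and all 52 were measured among the 19775 genes represented on the arrays. Each gene was read from the probe set that carries its symbol alone and has the highest mean log2 intensity over the 26 arrays. By role they comprise 7 genes of CDK1, its cyclins, phosphatases and FOXM1, 8 mitotic kinases, 10 kinetochore and checkpoint genes, 17 kinesin and spindle genes, 3 cytokinesis genes, and 7 genes of chromosome structure and anaphase.

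Cells enter mitosis when CDK1 bound to cyclin B is activated by CDC25 phosphatases, after which kinases of the Aurora, Polo and NEK families build the spindle and the kinetochore checkpoint holds back anaphase until every chromosome is attached. Most of these genes are transcribed late in the cell cycle from promoters that hold a cell cycle homology region (CHR) and CCAAT boxes. The CCAAT boxes are bound by NF-Y, and the CHR by the MuvB complex, which activates together with B-MYB and FOXM1 and represses as part of DREAM in resting cells. The pooled RNA of these genes is widely used as a proliferation signature in breast cancer.

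The study asked how NOTCH3 signalling shapes gene expression in MDA-MB-468 cells, an established human breast cancer line of the basal, triple-negative type, with Affymetrix HG-U133 Plus 2.0 arrays. NOTCH3 is a surface receptor that needs cleavage by gamma-secretase to signal, and DAPT inhibits that protease. In the antagonism experiment cells were plated at 2.5 (x10e6 per 10 cm plate, as labelled), grown for 40 h and treated for 24 h. The groups were the NOTCH3 antibody A4 at 10 µg/ml with 0.05% DMSO (2 arrays), a control IgG at 10 µg/ml with 5 µM DAPT (3 arrays), and anti-gD control IgG at 10 µg/ml with 0.05% DMSO (3 arrays, called controls below). In the agonism experiment cells were plated at 6.25 in the same unit, and every plate except the DMSO plate was held in 5 µM DAPT for 16 h. The DMSO plate had 0.05% DMSO instead, and all plates were washed and kept in plain medium for 2 h. The groups, with 3 arrays each, then received JAG1-Fc coated beads (JAG1 is a Notch ligand), Fc coated beads, the NOTCH3 antibody A13 at 20 µg/ml, control IgG at 20 µg/ml, 5 µM DAPT, or DMSO. DAPT or DMSO was given to its own plates again at 22 h, and all arrays used here were harvested at 24 h. The JAG1, Fc, A13 and IgG groups thus share the earlier DAPT exposure and its washout, which the DMSO group did not have, while the DAPT group had DAPT before and after the wash. All groups are cultures of 1 cell line.

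Of the basal markers, EGFR lay between the 98.6th and 99.8th percentile of genes on every array and KRT5 between the 94.1st and 99.4th percentile. Of the luminal receptor genes PGR reached at most the 20.6th, ESR1 the 57.2nd and ERBB2 the 76.7th. Of genes of other cell types the leukocyte gene PTPRC reached at most the 13.3rd and the fibroblast gene COL3A1 the 32.4th, while the endothelial gene PECAM1 lay between the 54.7th and 65.2nd and COL1A1 between the 70.0th and 78.8th. Array medians of log2 intensity ranged from 7.60 to 7.65 in the antagonism experiment and from 6.84 to 6.88 in the agonism experiment, so levels were compared only within an experiment. Antagonism control 2 stood apart, with an SD of log2 differences of 0.25 from control 1 and 0.32 from control 3, against 0.13 to 0.19 between all other arrays of a group. The genes MYC, HES1, NRARP and OLFM4 served as a check of the treatments. All 4 rose with A13 against IgG and with JAG1 against Fc beads, MYC by 1.33 ± 0.072 and 0.80 ± 0.072 log2 units. With DAPT against DMSO MYC fell by 1.21 ± 0.072, HES1 and OLFM4 fell as well, and NRARP gave -0.19 ± 0.068 (adjusted p = 0.0563) and did not pass. MYC also rose by 0.44 ± 0.072 with Fc beads against IgG, where the other 3 did not pass.

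The 52 genes were among the brighter genes of these cells. In both experiments all 52 had a mean level above the 50th percentile of genes, with a median percentile of 91.0 in the antagonism and 91.6 in the agonism experiment. The lowest were KIF15 at the 59.4th percentile in the antagonism experiment and CENPE at the 59.4th in the agonism experiment, both motor proteins. The highest in both was PTTG1, the securin that holds back separase, at the 98.3rd and the 98.8th percentile. Intensities of different probe sets are not calibrated against each other, so these ranks describe brightness on the array.

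Promoter sequence was available for 43 of the 52 genes in RefSeq (GRCh38.p14), as 54 windows of 300 bases, from 250 before to 50 after an annotated start. BIRC5, AURKA, TTK, TPX2, CDCA2, UBE2C, RACGAP1, FOXM1 and PBK had no window. The 9 stretches below run from 130 bases before to 30 bases after the start, and belong to genes on which the comparisons turn, except PLK1, which passed in none and is shown for its placement of both elements. They show the usual pairing of CCAAT boxes with a CHR just before the start (CCNB2, PLK1, HMMR) or with its variant form there (CCNB1). In CENPF the variant lies at -115, upstream of the CCAAT boxes. Other stretches show a CHR with no CCAAT box in the stretch (KIF15, NUF2, MAD2L1), and copies placed after the start (NUF2, MAD2L1, CKAP5). Capitals mark TTTGAA (the CHR), TTTAAA (its variant) and CCAAT, each on either strand, so TTCAAA is a CHR on the opposite strand, and ATTGG likewise stands for the CCAAT box.
CCNB1, chr5:69167020-69167179, plus strand: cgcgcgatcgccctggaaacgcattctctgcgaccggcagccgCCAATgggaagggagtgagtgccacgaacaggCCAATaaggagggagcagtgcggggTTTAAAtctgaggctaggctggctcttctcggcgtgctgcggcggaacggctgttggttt
CCNB2, chr15:59105016-59105175, plus strand: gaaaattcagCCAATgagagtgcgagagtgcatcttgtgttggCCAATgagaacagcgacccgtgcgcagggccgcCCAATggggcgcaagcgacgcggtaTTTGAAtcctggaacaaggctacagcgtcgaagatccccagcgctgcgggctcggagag
PLK1, chr16:23678759-23678918, plus strand: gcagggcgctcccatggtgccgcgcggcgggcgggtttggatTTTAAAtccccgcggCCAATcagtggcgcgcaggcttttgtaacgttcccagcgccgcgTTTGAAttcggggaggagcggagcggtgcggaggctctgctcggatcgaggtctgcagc
HMMR, chr5:163460502-163460661, plus strand: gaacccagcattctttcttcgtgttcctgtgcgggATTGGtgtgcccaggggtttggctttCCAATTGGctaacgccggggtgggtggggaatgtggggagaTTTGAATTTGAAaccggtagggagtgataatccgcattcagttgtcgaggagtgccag
NUF2, chr1:163321824-163321983, plus strand: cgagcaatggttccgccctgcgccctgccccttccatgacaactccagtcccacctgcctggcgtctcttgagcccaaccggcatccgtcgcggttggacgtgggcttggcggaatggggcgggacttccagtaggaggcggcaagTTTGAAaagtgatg
MAD2L1, chr4:120066819-120066978, minus strand: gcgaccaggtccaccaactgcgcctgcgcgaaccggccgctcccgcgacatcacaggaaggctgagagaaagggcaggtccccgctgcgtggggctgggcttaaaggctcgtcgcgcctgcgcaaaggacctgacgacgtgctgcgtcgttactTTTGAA
CENPF, chr1:214603065-214603224, plus strand: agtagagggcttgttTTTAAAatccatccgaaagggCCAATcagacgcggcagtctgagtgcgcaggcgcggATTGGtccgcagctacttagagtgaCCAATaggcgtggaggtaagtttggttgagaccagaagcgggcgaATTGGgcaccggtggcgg
KIF15, chr3:44761664-44761823, plus strand: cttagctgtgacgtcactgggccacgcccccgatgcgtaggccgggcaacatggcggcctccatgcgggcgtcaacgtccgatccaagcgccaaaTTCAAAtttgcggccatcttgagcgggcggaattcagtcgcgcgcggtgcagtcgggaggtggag
CKAP5, chr11:46846251-46846410, minus strand: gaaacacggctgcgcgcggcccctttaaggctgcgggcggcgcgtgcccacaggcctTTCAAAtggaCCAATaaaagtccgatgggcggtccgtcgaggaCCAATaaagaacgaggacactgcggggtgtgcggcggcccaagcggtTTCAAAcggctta

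Counted over both strands, TTTGAA was found in 34 of the 54 windows (63.0%), against 15.2% of all 35116 windows of the same length. The variant TTTAAA was in 29.6% of the members' windows and 12.2% of all windows, and CCAAT in 70.4% and 34.6%. A CHR of either form together with a CCAAT box was present in 57.4% of the members' windows against 9.27% of all windows, and in at least 1 window of 28 of the 43 genes. Placement was counted as well: 46.3% of the members' windows held TTTGAA between base -60 and base 30 relative to the start, against 4.35% of all windows, and 55.6% held CCAAT between base -120 and base -20, against 19.4%. In HMMR the CHR copies lay at -28 and -22, in CCNB2 and PLK1 at -29, and in CENPF at 41, outside the printed stretch.

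Other motifs were rarer. The E2F forms TTGGCGC and TTCGCGC were in 11.1% and 9.26% of the members' windows, against 3.04% and 2.24% of all windows. The RBPJ motif GTGGGAA, the DNA sequence bound by the Notch effector, was in 7.41% against 6.25%, and the E-box CACGTG, bound by MYC, in 9.26% against 7.26%. A list of 29 DNA replication and G1/S genes held CCAAT in 67.6% of its windows, a CHR of either form with CCAAT in 5.88%, and the E2F forms in 29.4% and 17.6%, with no test of the difference from the members made. A match is a stretch of letters and does not show binding. For members with the CHR and CCAAT pair (28 genes) and without it (15 genes) the median log2 change was -0.19 and -0.22 with DAPT against DMSO, 0.19 and 0.27 with JAG1 against Fc beads, and 0.12 and 0.15 with A13 against IgG. It was 0.086 and 0.14 on washout with IgG against DAPT, 0.020 and 0.10 with A13 against DMSO, -0.17 and -0.25 with A4 against controls, and -0.13 and -0.25 with DAPT against controls. For the antagonism DAPT effect minus the agonism one it was 0.087 and -0.076. No test of these differences was made.

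On continued DAPT many of the mitotic genes were lower than on DMSO. With a call at an adjusted p under 0.05 (limma, Benjamini-Hochberg over all 19775 genes, as in all comparisons below), 27 of 52 members fell and 0 rose, in a comparison that called 20.7% of all genes, 8.31% lower and 12.4% higher. The unadjusted p was under 0.05 for 40 of 52 members and for 6189 of all 19775 genes. The median log2 change, the difference between the group means of log2 intensity, was -0.19 over the members and 0.016 over all genes. The members' direction was the same under both other scalings of the arrays, with 24 and 31 lower and 0 higher. In bulk RNA, fewer cells in G2 or mitosis and less of these transcripts per cell cannot be told apart.

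**Figure D1:**
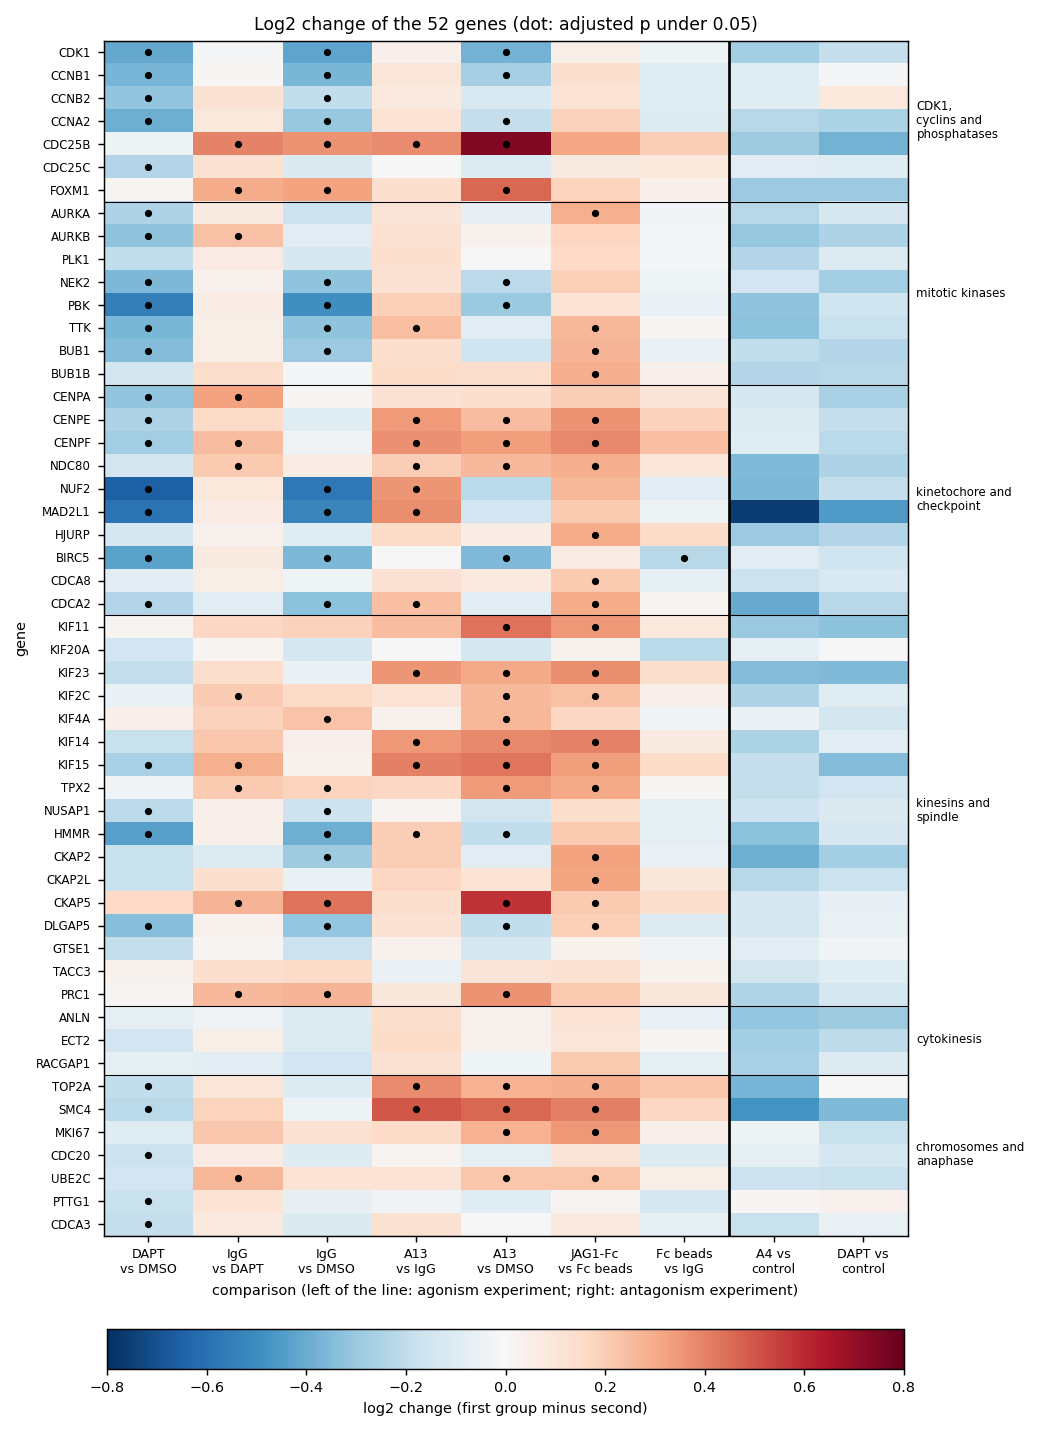
Log2 change of each of the 52 genes (lines, ordered by role) in 9 comparisons (columns). Blue is lower and red is higher in the first-named group, and a dot marks an adjusted p under 0.05. DAPT against DMSO is blue for 46 genes, JAG1 against Fc beads is red for all 52, and A13 and IgG against DMSO show both colours.

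Of the 7 genes of CDK1, cyclins, phosphatases and FOXM1, 5 fell. CDK1, the kinase that drives entry into mitosis, had log2 intensities of 12.83, 12.67 and 12.80 on the DAPT arrays, against 13.21, 13.09 and 13.24 on the DMSO arrays. The groups did not overlap, and CDK1 fell by 0.41 ± 0.072 log2 units (SE; adjusted p = 0.000604), or 24.8% of its intensity. CCNB1, the cyclin B1 that CDK1 needs, read 12.65, 12.56 and 12.56 with DAPT and 12.99 and 12.91 on DMSO arrays 1 and 2 and 13.0002 on DMSO array 3, a fall of 0.37 ± 0.049. CCNB2 fell by 0.31 ± 0.051, cyclin A2 (CCNA2) by 0.39 ± 0.068 and the phosphatase gene CDC25C by 0.23 ± 0.067. CDC25B and FOXM1, the transcription factor of G2/M genes, did not pass, with changes of -0.038 ± 0.12 and 0.024 ± 0.073.

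Kinase and kinetochore genes held the largest changes. NUF2, a subunit of the NDC80 complex that ties microtubules to kinetochores, had 11.34, 11.18 and 11.14 on the DAPT arrays and 11.94, 11.66 and 12.02 on the DMSO arrays. It fell by 0.65 ± 0.088, its intensity decreased by 36.4%, and its groups did not overlap, although DMSO array 2 was lower than the other DMSO arrays. MAD2L1, the checkpoint protein that restrains CDC20, read 12.10, 11.84 and 11.94 with DAPT and 12.69, 12.32 and 12.64 with DMSO and fell by 0.59 ± 0.083. PBK, a mitotic kinase, fell by 0.55 ± 0.079, the checkpoint kinase TTK by 0.37 ± 0.057, the centrosome kinase NEK2 by 0.36 ± 0.066 and BUB1 by 0.35 ± 0.063.

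In all, 6 of 8 kinases and 7 of 10 kinetochore and checkpoint genes were lower. AURKB, the kinase of the chromosomal passenger complex, fell by 0.32 ± 0.055, and its partner BIRC5 (survivin) by 0.43 ± 0.054. AURKA, the spindle pole kinase, fell by 0.24 ± 0.064 and CENPA, the histone of centromeres, by 0.31 ± 0.062. PLK1 gave -0.19 ± 0.069 with an adjusted p of 0.0527 and did not pass.

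Of 17 kinesin and spindle genes 4 fell: HMMR, a spindle assembly protein, by 0.43 ± 0.063, DLGAP5, which stabilises kinetochore fibres, by 0.34 ± 0.054, KIF15 by 0.26 ± 0.064 and NUSAP1 by 0.21 ± 0.060. CKAP5, which promotes microtubule growth, had the highest change of the 52, 0.16 ± 0.059, and did not pass. Of the 3 cytokinesis genes (ANLN, ECT2, RACGAP1) 0 passed with limma and 1 had an unadjusted p under 0.05. TOP2A, the topoisomerase that untangles chromosomes, fell by 0.20 ± 0.059, the condensin subunit SMC4 by 0.22 ± 0.074, and CDC20, PTTG1 and CDCA3 by 0.17 to 0.19. MKI67 gave -0.094 ± 0.082 and did not pass. Of the 27 falls, 17 were called with each of the 6 arrays of the comparison left out in turn, and without DMSO array 1 the count was 17.

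**Figure D2:**
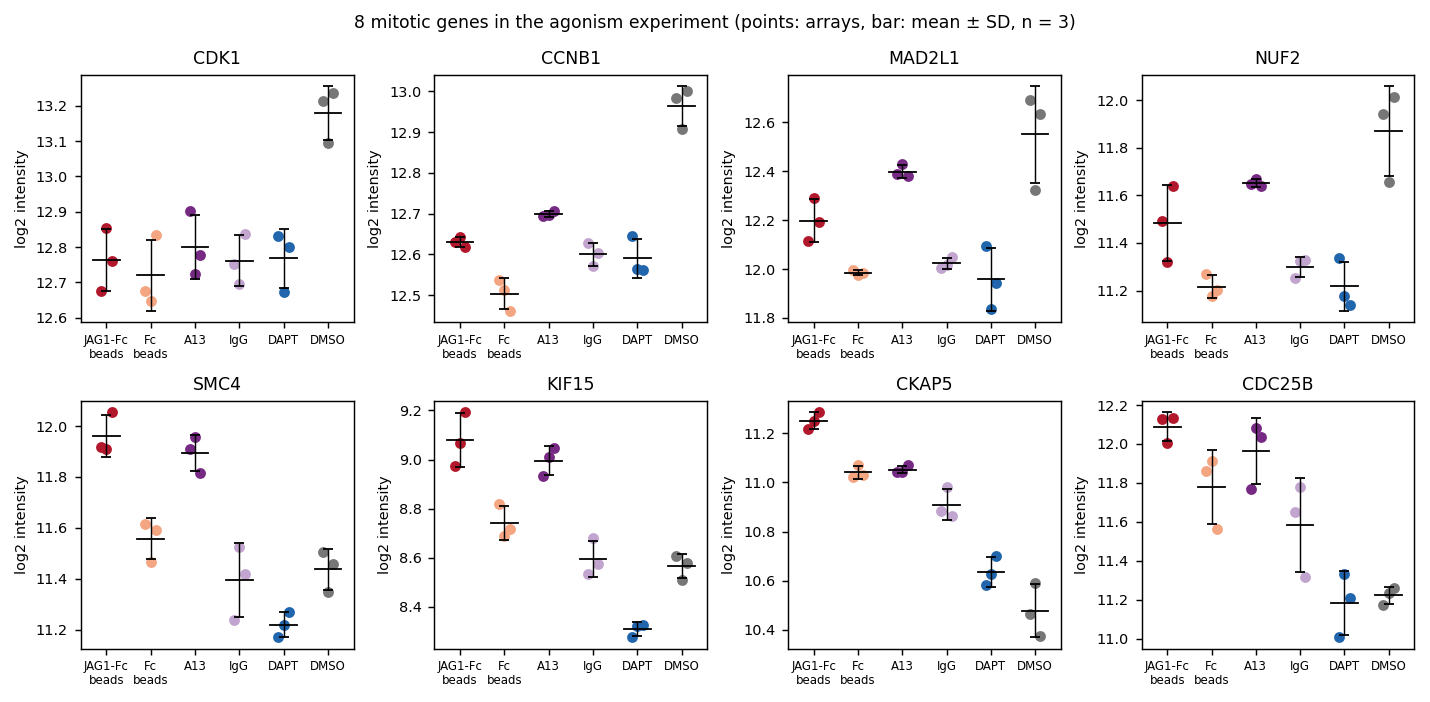
Log2 intensity of 8 genes on the 18 arrays of the agonism experiment, by group (points are arrays, bars the mean and SD, n = 3). CDK1 and CCNB1 are highest on the DMSO arrays and lower in all 5 groups that had DAPT, whereas SMC4, KIF15, CKAP5 and CDC25B are highest with JAG1-Fc beads or A13. Each panel has its own vertical scale, which does not start at 0.

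Washing DAPT out and adding control IgG raised 12 of 52 members relative to continued DAPT and lowered 0, where 9.77% of all genes were called, 4.15% higher and 5.62% lower. The members' median change was 0.091, against 0.031 over all genes. CENPA had 10.78, 10.82 and 10.69 on the IgG arrays and 10.46, 10.44 and 10.42 on the DAPT arrays, did not overlap, and rose by 0.32 ± 0.062 (adjusted p = 0.0026). CKAP5 had 10.88, 10.98 and 10.86 with IgG and 10.58, 10.63 and 10.70 with DAPT and rose by 0.27 ± 0.059. CDC25B, a phosphatase that activates CDK1, read 11.65, 11.78 and 11.31 with IgG and 11.01, 11.33 and 11.21 with DAPT. Its change of 0.40 ± 0.12 was the largest of the members and passed, but IgG array 3 fell within the range of the DAPT arrays.

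Among the other members FOXM1 rose by 0.30 ± 0.073, KIF15 by 0.29 ± 0.064, the ubiquitin-conjugating enzyme of anaphase UBE2C by 0.26 ± 0.061, the midzone protein PRC1 by 0.26 ± 0.067, CENPF by 0.25 ± 0.067, AURKB by 0.24 ± 0.055 and NDC80 by 0.21 ± 0.061. TPX2 and KIF2C rose by 0.21 and 0.20. CDK1 gave -0.0081 ± 0.072, CCNB1 0.010 ± 0.049, CCNB2 0.12 ± 0.051, HMMR 0.040 ± 0.063, BIRC5 0.071 ± 0.054, AURKA 0.075 ± 0.064, PLK1 0.066 ± 0.069, TOP2A 0.096 ± 0.059 and MKI67 0.22 ± 0.082, and these did not pass. In every fit that left out 1 array CENPA and CKAP5 passed, and no other member passed in every such fit. Without IgG array 2 the count of calls was 2, without DAPT array 1 it was 4, and without DAPT array 2 it was 7. The other probe set of AURKB, 7.34 log2 units on average, gave -0.24 in this comparison, and a dim one of CENPF, 5.70 on average, gave -0.54, against rises on the probe sets used.

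Relative to DMSO, washout with IgG left 16 members lower and 6 higher, where 30.6% of all genes were called, 12.6% lower and 17.9% higher. This comparison shares its IgG and DMSO arrays with others described here, and the groups differ in the earlier DAPT as well as in IgG. CDK1 had 12.75, 12.69 and 12.84 on the IgG arrays, below every DMSO array, and fell by 0.42 ± 0.072. NUF2 fell by 0.57 ± 0.088, MAD2L1 by 0.53 ± 0.083, PBK by 0.49 ± 0.079, HMMR by 0.39 ± 0.063, CCNB1 by 0.36 ± 0.049, BIRC5 by 0.36 ± 0.054, CDCA2, a phosphatase-targeting protein of mitotic chromosomes, by 0.33 ± 0.063, and CCNB2 by 0.20 ± 0.051. The other falls, in NEK2, TTK, DLGAP5, CCNA2, BUB1, CKAP2 and NUSAP1, lay between 0.17 and 0.32.

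The 6 members that rose on washout against DMSO were CKAP5 by 0.43 ± 0.059, CDC25B by 0.36 ± 0.12, FOXM1 by 0.32 ± 0.073, PRC1 by 0.27 ± 0.067, KIF4A by 0.23 ± 0.067 and TPX2 by 0.18 ± 0.061. FOXM1 read 10.35, 10.49 and 10.40 with IgG and 10.04, 10.19 and 10.04 with DMSO, without overlap. AURKA gave -0.17 ± 0.064, AURKB -0.085 ± 0.055, PLK1 -0.13 ± 0.069, TOP2A -0.10 ± 0.059, MKI67 0.12 ± 0.082 and CENPA 0.0088 ± 0.062, and none of these passed. The count of calls stayed between 18 and 25 with each array left out.

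The agonist antibody A13 raised 14 of 52 members relative to IgG and lowered 0, where 14.7% of all genes were called, 5.68% higher and 9.02% lower. The change was above 0 for 49 members, with a median of 0.13 against -0.026 over all genes. SMC4, a condensin subunit that compacts chromosomes, had 11.91, 11.96 and 11.82 on the A13 arrays and 11.24, 11.53 and 11.42 on the IgG arrays. The groups were well apart, and SMC4 rose by 0.50 ± 0.074, or 41.3% (adjusted p = 0.00012). KIF15, a spindle motor, had 8.93, 9.01 and 9.05 with A13 and 8.53, 8.68 and 8.57 with IgG and rose by 0.40 ± 0.064. TOP2A had 12.40, 12.41 and 12.37 with A13 and 11.95, 11.98 and 12.12 with IgG and rose by 0.38 ± 0.059. Neither gene overlapped between the groups.

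Kinetochore and checkpoint genes gave 6 of the 14 rises with A13: MAD2L1 rose by 0.37 ± 0.083, CENPF by 0.36 ± 0.067, NUF2 by 0.35 ± 0.088, the kinetochore motor CENPE by 0.34 ± 0.073, and CDCA2 and NDC80 by 0.24 and 0.20. Among motors and spindle genes KIF23, part of the centralspindlin complex of cytokinesis, rose by 0.36 ± 0.086, KIF14 by 0.35 ± 0.075 and HMMR by 0.20 ± 0.063. TTK rose by 0.24 ± 0.057. CDC25B rose by 0.38 ± 0.12, with A13 array 1 at 11.77 and IgG array 2 at 11.78, so the groups overlapped.

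CDK1 and the B-type cyclins did not pass. CDK1 read 12.90, 12.72 and 12.78 with A13, which overlapped with IgG, and gave 0.040 ± 0.072. CCNB1 gave 0.098 ± 0.049, CCNB2 0.076 ± 0.051, BIRC5 0.0032 ± 0.054, AURKA 0.10 ± 0.064, AURKB 0.12 ± 0.055, PLK1 0.13 ± 0.069, FOXM1 0.14 ± 0.073, MKI67 0.15 ± 0.082 and CENPA 0.12 ± 0.062, and these did not pass. Without IgG array 1 the count of rises was 9, and with the other arrays left out it was 10 to 15. With quantile normalization repeated over the arrays of this experiment it was 22, all higher, where 1430 of all genes were higher and 1939 lower.

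JAG1-Fc beads raised 24 of 52 members relative to Fc beads and lowered 0, where 8.11% of all genes were called, 2.97% higher and 5.14% lower. All 52 changes were above 0, with a median of 0.21 against 0.0083 over all genes. By role 10 of 17 kinesin and spindle genes, 6 of 10 kinetochore and checkpoint genes, 4 of 8 kinases and 4 of 7 chromosome and anaphase genes rose. Of the 7 genes of CDK1, cyclins, phosphatases and FOXM1, 0 passed with limma. An unadjusted p under 0.05 was found for 5 of these 7 and for 4146 of all 19775 genes.

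SMC4 had 11.92, 11.91 and 12.05 on the JAG1 arrays and 11.62, 11.47 and 11.59 on the Fc bead arrays, without overlap, and rose by 0.40 ± 0.074, or 32.3%. CENPF, a large kinetochore protein, had 11.24, 11.38 and 11.44 with JAG1 and 10.97, 11.02 and 10.92 with Fc beads, rose by 0.38 ± 0.067 and had the lowest adjusted p of the members, 0.00118. KIF14 had 10.68, 10.68 and 10.89 with JAG1 and 10.43, 10.34 and 10.29 with Fc beads and rose by 0.40 ± 0.075. In all 3 genes JAG1 array 3 was the highest array of the agonism experiment.

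Further rises were 0.37 ± 0.086 for KIF23, 0.36 ± 0.073 for CENPE, 0.35 ± 0.086 for the bipolar spindle motor KIF11, 0.35 ± 0.082 for the proliferation marker MKI67, 0.34 ± 0.064 for KIF15, 0.32 ± 0.080 for CKAP2 and 0.32 ± 0.076 for CKAP2L, both spindle proteins. TOP2A rose by 0.29 ± 0.059 and AURKA by 0.29 ± 0.064. The remaining rises, in TPX2, CDCA2, HJURP, BUB1B, NDC80, BUB1, TTK, KIF2C, UBE2C, CKAP5, CDCA8 and DLGAP5, lay between 0.19 and 0.30. CDK1 gave 0.044 ± 0.072, CCNB1 0.13 ± 0.049, CCNB2 0.11 ± 0.051, AURKB 0.17 ± 0.055, PLK1 0.16 ± 0.069, FOXM1 0.18 ± 0.073, HMMR 0.21 ± 0.063, BIRC5 0.065 ± 0.054 and CENPA 0.19 ± 0.062, and these did not pass. Without JAG1 array 3 the count of rises was 12 and without Fc bead array 2 it was 14. Estimating the spread from the compared groups alone gave 13.

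**Figure D3:**
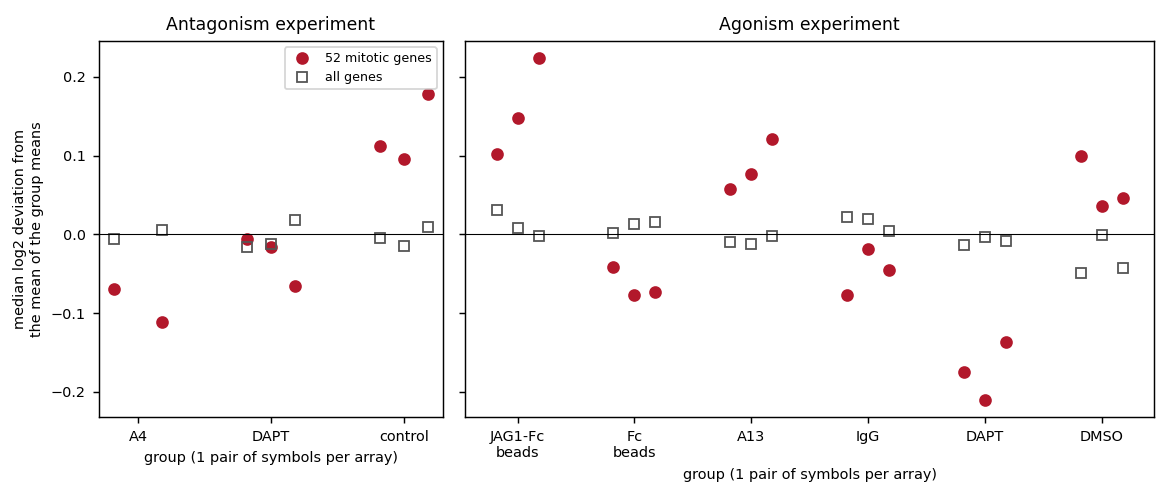
Median over the 52 genes (filled circles) and over all genes (open squares) of the log2 deviation of each array from the mean of its experiment's group means. The antagonism experiment is on the left and the agonism experiment on the right. The 3 DAPT arrays of the agonism experiment lie between -0.21 and -0.14, the JAG1 arrays between 0.10 and 0.22, and all-gene medians stay between -0.049 and 0.031.

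Summed up by array, the medians of the 52 genes on the JAG1 and A13 arrays lay above those of their control arrays without overlap, and those on the DAPT arrays below DMSO. On the agonism arrays the median deviation from the mean of the group means was 0.10, 0.15 and 0.22 with JAG1 beads, and -0.042, -0.077 and -0.074 with Fc beads. It was 0.058, 0.077 and 0.12 with A13, and -0.076, -0.018 and -0.046 with IgG. It was -0.17, -0.21 and -0.14 with DAPT, and 0.099, 0.036 and 0.046 with DMSO. Of the 52 genes 37, 43 and 46 were above that mean on the JAG1 arrays, and 41, 47 and 50 on the A13 arrays. The counts were 23, 15 and 14 with Fc beads, and 9, 20 and 11 with IgG. They were 2, 2 and 6 on the DAPT arrays, and 30, 28 and 28 on the DMSO arrays. Matching counts over all genes are not given here.

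The responses to the bound ligand and to the antibody were compared directly, as the JAG1 change against Fc beads minus the A13 change against IgG. The difference was called for 0 of 52 members by limma, where 0.182% of all genes were called. An unadjusted p under 0.05 was found for 0 members and for 1173 of all 19775 genes. The members' median difference was 0.060. It ranged from -0.16 for MAD2L1, with a 95% confidence interval of -0.41 to 0.084, to 0.19 for MKI67, with an interval of -0.053 to 0.44. The intervals for SMC4 (-0.32 to 0.13), CDK1 (-0.21 to 0.22), CCNB1 (-0.12 to 0.18), CENPA (-0.11 to 0.26) and TOP2A (-0.27 to 0.085) all held 0, and differences inside these intervals could not be seen with 3 arrays a group. AURKA gave 0.18 ± 0.090, AURKB 0.051 ± 0.078, PLK1 0.031 ± 0.097, CCNB2 0.032 ± 0.073, FOXM1 0.043 ± 0.10, HMMR 0.010 ± 0.089 and BIRC5 0.062 ± 0.077. The agonists differ in form and amount, so the doses are not matched.

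Fc beads against soluble IgG changed 1 member, where 2.08% of all genes were called, 0.44% lower and 1.64% higher. BIRC5 had 11.65, 11.64 and 11.63 on the Fc bead arrays and 11.87, 11.88 and 11.83 on the IgG arrays, without overlap, and fell by 0.22 ± 0.054 (adjusted p = 0.0401). The call was lost under 4 of 7 other processing choices, and in 5 of the 6 fits with an array left out, the exception being IgG array 3. The largest change, in CENPF, was 0.24 ± 0.067 and did not pass. An unadjusted p under 0.05 was found for 10 of 52 members and for 2893 of all 19775 genes. CDK1 gave -0.041 ± 0.072, CCNB1 -0.097 ± 0.049, CCNB2 -0.097 ± 0.051, AURKA -0.021 ± 0.064, AURKB -0.0072 ± 0.055, PLK1 -0.012 ± 0.069, FOXM1 0.041 ± 0.073, TOP2A 0.22 ± 0.059, MKI67 0.040 ± 0.082, HMMR -0.077 ± 0.063 and CENPA 0.10 ± 0.062, and these did not pass. The median over the members was 0.00017.

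Set against DMSO, A13 left 18 members higher and 8 lower, where 30.9% of all genes were called, 15.7% higher and 15.2% lower. With quantile normalization repeated the split was 20 higher and 5 lower. The comparison shares arrays with those of A13 against IgG and of DAPT and IgG against DMSO. CDC25B had 11.77, 12.08 and 12.04 on the A13 arrays and 11.17, 11.23 and 11.26 on the DMSO arrays and rose by 0.74 ± 0.12, or 67%. CKAP5 had 11.04, 11.04 and 11.07 with A13 and 10.46, 10.59 and 10.38 with DMSO and rose by 0.58 ± 0.059 (adjusted p = 8.62e-07). Neither overlapped, and these were the largest rises.

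FOXM1 rose by 0.46 ± 0.073, SMC4 by 0.46 ± 0.074, KIF11 by 0.43 ± 0.086, KIF15 by 0.43 ± 0.064, KIF14 by 0.39 ± 0.075 and PRC1 by 0.36 ± 0.067. MKI67 and TOP2A both rose by 0.28. Of the 17 kinesin and spindle genes 9 rose and 2 fell, and of the chromosome and anaphase genes 4 of 7 rose. On their dimmest probe sets, at 5.70 to 7.02 log2 units, CENPF gave -1.03, TOP2A -0.97, KIF23 -0.83 and SMC4 -0.36, against rises on the brightest ones used. CENPF, TOP2A and SMC4 have a further probe set each, and these gave 0.29, 0.29 and 0.51. KIF23 has no further one.

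The members lower than DMSO included CDK1 and its cyclins. CDK1 fell by 0.38 ± 0.072, with every A13 array below every DMSO array, CCNB1 by 0.27 ± 0.049 and CCNA2 by 0.19 ± 0.068. BIRC5 fell by 0.36 ± 0.054, PBK by 0.30 ± 0.079, HMMR by 0.20 ± 0.063, and NEK2 and DLGAP5 by 0.21 and 0.20. CCNB2 gave -0.12 ± 0.051, AURKA -0.067 ± 0.064, AURKB 0.037 ± 0.055, PLK1 -0.0013 ± 0.069 and CENPA 0.13 ± 0.062, and these did not pass. NUF2 and MAD2L1, with 11.65, 11.67 and 11.64 and 12.39, 12.43 and 12.38 on the A13 arrays, overlapped with DMSO and did not pass.

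In the antagonism experiment the blocking antibody A4 gave 51 of 52 changes below 0 against the controls, but 0 passed with limma, where 0.101% of all genes were called, 0.0556% lower. The unadjusted p was under 0.05 for 29 of 52 members and for 1836 of all 19775 genes. The members' median was -0.22 against 0.0047 over all genes. MAD2L1 had 11.40 and 11.32 on the A4 arrays and 11.97, 12.36 and 12.04 on the controls. The groups did not overlap, and the change of -0.76 ± 0.12 had the lowest adjusted p of the members, 0.0596. SMC4 had 11.43 and 11.40 with A4 and 11.77, 11.91 and 12.01 in the controls, a change of -0.48 ± 0.085.

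The genes described throughout gave, with A4 against controls, -0.27 ± 0.087 for CDK1, -0.10 ± 0.069 for CCNB1, -0.097 ± 0.068 for CCNB2, -0.22 ± 0.090 for AURKA, -0.30 ± 0.078 for AURKB, -0.24 ± 0.076 for PLK1 and -0.29 ± 0.089 for FOXM1. TOP2A gave -0.37 ± 0.17, MKI67 -0.042 ± 0.13, HMMR -0.33 ± 0.078, BIRC5 -0.085 ± 0.080 and CENPA -0.14 ± 0.079. With moderation by trend and robust estimation 7 members passed, all lower, and without control 2 there was 1 call. The shares of all genes called in these fits are not given here.

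DAPT against the same controls gave 50 changes below 0 and 0 calls by limma, where 0.354% of all genes were called. The unadjusted p was under 0.05 for 25 of 52 members and for 2572 of all 19775 genes, and the members' median was -0.17. The control arrays are shared with the A4 comparison. CDC25B had 11.65, 11.67 and 11.70 on the DAPT arrays and 12.14, 11.92 and 12.10 on the controls. These did not overlap, and the change of -0.38 ± 0.073 had the lowest adjusted p, 0.0781. MAD2L1 had 11.63, 11.62 and 11.76 with DAPT and gave -0.45 ± 0.10, and KIF23 gave -0.35 ± 0.069.

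The values of the genes described throughout were -0.18 ± 0.078 for CDK1, -0.0080 ± 0.061 for CCNB1, 0.083 ± 0.061 for CCNB2, -0.13 ± 0.080 for AURKA, -0.25 ± 0.069 for AURKB, -0.11 ± 0.068 for PLK1 and -0.29 ± 0.080 for FOXM1. TOP2A gave -0.0029 ± 0.15, MKI67 -0.18 ± 0.11, HMMR -0.13 ± 0.070, BIRC5 -0.16 ± 0.072 and CENPA -0.26 ± 0.071. Without control 2, the array that stands apart, 8 members passed, and the share of all genes called in that fit is not given here. On simulated data with these group sizes and equal noise on every array, 74% of genes changed by 0.5 log2 units were recovered in this comparison. In DAPT against DMSO it was 94%. Only changes of 0.5 and 1 were simulated, so the recovery of changes near the members' median of -0.17 is not known. Between A4 and DAPT 0 members passed with limma, and 0% of all genes were called. An unadjusted p under 0.05 was found for 4 of 52 members and for 1628 of all 19775 genes. The members' median difference there was -0.054, from -0.37 for TOP2A to 0.17 for KIF15, with -0.092 ± 0.087 for CDK1, -0.092 ± 0.069 for CCNB1, -0.18 ± 0.068 for CCNB2, -0.097 ± 0.090 for AURKA and -0.055 ± 0.078 for AURKB. PLK1 gave -0.12 ± 0.076, FOXM1 -0.0017 ± 0.089, MKI67 0.14 ± 0.13, HMMR -0.19 ± 0.078, BIRC5 0.078 ± 0.080 and CENPA 0.12 ± 0.079.

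The DAPT effect was then compared between the experiments, as the antagonism change (24 h, against controls) minus the agonism change (continued DAPT, against DMSO), in 1 fit over 26 arrays. It differed for 7 members, all with a positive difference, where 6.12% of all genes were called, 2.85% higher and 3.27% lower. CCNB2 read 12.08, 12.11 and 12.02 with DAPT and 11.99, 11.99 and 11.99 in the antagonism controls, a change of 0.083 ± 0.061. In the agonism experiment it read 12.13, 12.14 and 12.16 with DAPT and 12.49, 12.41 and 12.47 with DMSO, a change of -0.31 ± 0.051. The difference was 0.40 ± 0.069 (adjusted p = 0.00391). CCNB1 differed by 0.37 ± 0.068, with -0.0080 in the antagonism and -0.37 in the agonism experiment.

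NUF2 differed by 0.46 ± 0.12, PBK by 0.39 ± 0.10, HMMR by 0.30 ± 0.089, DLGAP5 by 0.28 ± 0.074 and BIRC5 by 0.27 ± 0.080. The differences for CDK1 (0.23 ± 0.10), AURKA (0.12 ± 0.096), AURKB (0.073 ± 0.080), PLK1 (0.082 ± 0.094), FOXM1 (-0.32 ± 0.11), TOP2A (0.20 ± 0.15), MKI67 (-0.084 ± 0.14) and CENPA (0.052 ± 0.088) did not pass. MAD2L1 gave 0.14 ± 0.13. The experiments also differed in plating density, length of DAPT exposure and the presence of IgG, whose parts cannot be told apart. With the spread estimated from the 4 compared groups alone 0 of the 7 passed, and with 1 array left out the count was 2 to 12. CCNB1 and CCNB2 kept the call with each array left out.

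**Figure D4:**
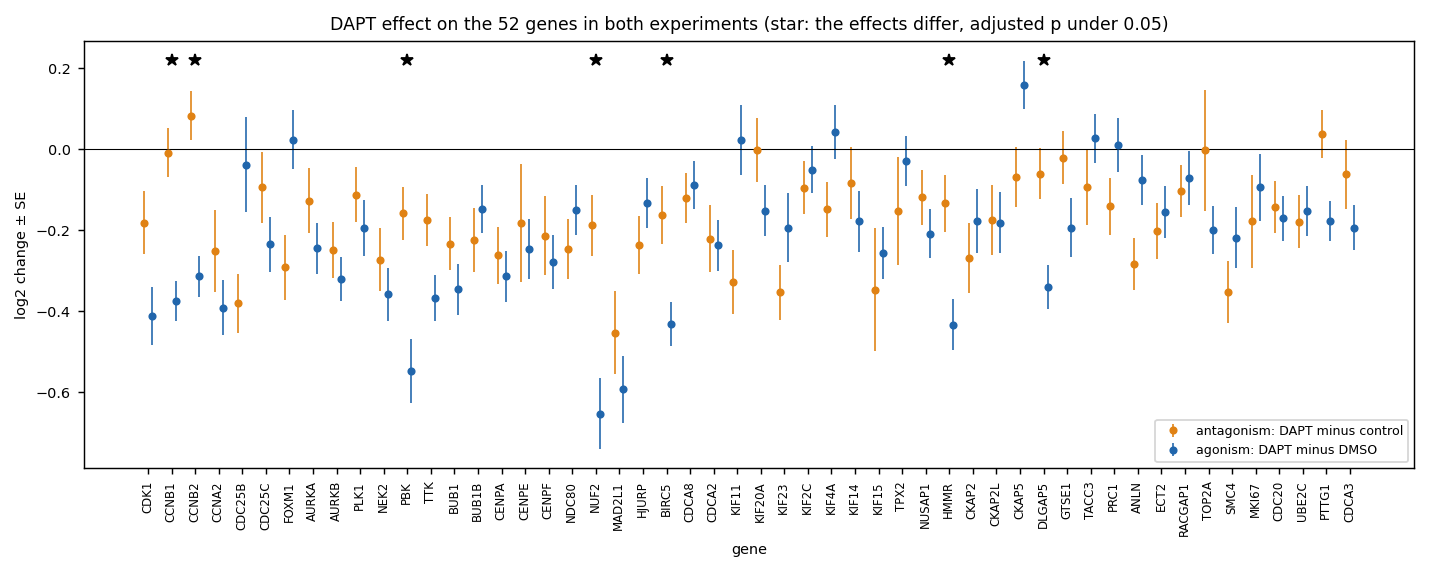
Log2 change with DAPT (± SE) for the 52 genes, in the antagonism experiment against controls (orange) and in the agonism experiment against DMSO (blue). A star marks the 7 genes whose changes differ at an adjusted p under 0.05. CCNB1 and CCNB2 lie near or above 0 in the antagonism experiment and below -0.3 in the agonism experiment, while MAD2L1 is low in both.

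Other genes of the pathway were taken from lists by function. Of 53 further mitotic genes 27 fell and 0 rose with DAPT against DMSO, where 8.31% of all genes were lower and 12.4% higher, among them DEPDC1 by 0.57 ± 0.077 and the centromere protein genes CENPN and OIP5 by 0.53 ± 0.075 and 0.52 ± 0.068. With JAG1 against Fc beads 15 rose and 0 fell, against 2.97% and 5.14% of all genes, led by ASPM, a spindle pole protein, at 0.37 ± 0.081. With A13 against IgG 14 rose and 1 fell, against 5.68% and 9.02% of all genes, led by KIF20B at 0.39 ± 0.097. On washout with IgG against DAPT 9 rose and 1 fell, against 4.15% and 5.62% of all genes, with the condensin genes NCAPH and SMC2 at 0.43 ± 0.063 and 0.37 ± 0.080. In the antagonism experiment 1 of the 53, the centromere protein gene MIS18A, passed with DAPT, where 0.152% of all genes were lower, and fell by 0.76 ± 0.12.

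Among regulators, the changes with DAPT against DMSO differed in sign, where 12.4% of all genes were higher and 8.31% lower. Of 11 MuvB and DREAM genes LIN9, a MuvB subunit, and E2F5 fell by 0.56 ± 0.13 and 0.44 ± 0.082 with DAPT against DMSO, and RBL2, which codes for p130, rose by 0.21 ± 0.061. MYBL2, which codes for B-MYB, rose by 0.35 ± 0.079 on washout with IgG against DAPT, where 4.15% of all genes were higher, as did E2F5 by 0.38 ± 0.082. With A13 against IgG (5.68% of all genes higher) E2F5 rose by 0.55 ± 0.082 and LIN9 by 0.46 ± 0.13, and with JAG1 against Fc beads (2.97% higher) E2F5 rose by 0.29 ± 0.082. Of 8 CDK inhibitor and G2 arrest genes 3 rose with DAPT against DMSO: CDKN1A, which codes for the inhibitor p21, by 0.80 ± 0.070, GADD45A by 0.44 ± 0.091 and CDKN1C by 0.44 ± 0.085. CDKN1A fell by 0.31 ± 0.070 on washout with IgG against DAPT, by 0.33 ± 0.070 with A13 against IgG and by 0.38 ± 0.070 with JAG1 against Fc beads, where 5.62%, 9.02% and 5.14% of all genes were lower. After washout with IgG all 3 were higher than on DMSO, where 17.9% of all genes were higher. The rises were 0.49 ± 0.070 for CDKN1A, 0.69 ± 0.091 for GADD45A and 0.51 ± 0.085 for CDKN1C. GADD45A also rose by 0.59 ± 0.091 with Fc beads against IgG, where 1.64% of all genes were higher. CCNG2, which codes for cyclin G2, rose by 0.23 ± 0.068 on washout with IgG against DAPT and by 0.29 ± 0.068 with JAG1 against Fc beads. In the anaphase-promoting complex list 1 of 12 fell with DAPT against DMSO, ANAPC10 by 0.30 ± 0.084, a share close to the 8.31% of all genes. Of the same 12 genes 4 were lower and 0 higher in IgG against DMSO, where 12.6% of all genes were lower. A13 against DMSO also gave 4 lower and 0 higher, where 15.2% of all genes were lower. With A13 against IgG 1 rose and 2 fell, against 5.68% and 9.02% of all genes.

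In the agonism experiment the DNA replication and G1/S genes showed both directions where the mitotic genes fell. With DAPT against DMSO 8 of 29 were lower, GINS2 by 0.55 ± 0.070, and 2 were higher, against 8.31% and 12.4% of all genes. With JAG1 against Fc beads, where 2.97% of all genes were higher and 5.14% lower, 2 rose, E2F2 by 0.43 ± 0.072 and MCM10 by 0.23 ± 0.065, and CCNE1 fell by 0.21 ± 0.058. With A13 against DMSO 15 rose and 4 fell, against 15.7% and 15.2% of all genes. On washout with IgG against DAPT 6 of 29 rose and 1 fell, against 4.15% and 5.62% of all genes. The list's median change there was 0.15, while 12 of 52 members rose with a median of 0.091. With A13 against IgG 2 of 29 rose and 0 fell, where 14 of 52 members rose. In IgG against DMSO 13 of 29 were higher and 6 lower, against 17.9% and 12.6% of all genes. There 6 of 52 members were higher and 16 lower. In the antagonism experiment 29 of 29 were below 0 with A4 against controls (median -0.22, 0 passed), where 51 of 52 members were (median -0.22). With DAPT against controls 28 of 29 were below 0 (median -0.19), where 50 of 52 members were (median -0.17). MCM10 alone passed there, a fall of 0.55 ± 0.082, where 0.152% of all genes were lower. The difference between the lists was not tested.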

How the data were processed

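The deposited table holds 1 linear intensity per probe set and array, made by the authors with tools that the submitters' processing notes name as RMA and R 2.10. RMA evens out the distributions of arrays, so a change of most transcripts in 1 direction would be reduced, and it gives no detection calls. The fixed design assumed log2 values, so log2 was taken first and the planned test kept. Of 54675 probe sets 41091 carried 1 gene symbol, and the brightest per gene gave 19775 genes, with no filter on level. Of the 52 members 23 were read from _x_at or _s_at probe sets, which can detect related transcripts.

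Groups came from the treatment labels. Arrays are numbered in listed order, no batch is given, and the labels do not state separate cultures for the arrays of a group (the text mentions 1 DMSO plate). The p-values therefore cover only the spread of these samples, possibly a technical one. Their number limits the precision. The test was that of limma 3.58.1 (R 4.3.3; functions lmFit, contrasts.fit and eBayes), with all groups of an experiment in 1 fit with 5 and 12 residual degrees of freedom, and 26 arrays in 1 fit with 17 for the difference of the DAPT effects. Adjustment was by the Benjamini-Hochberg method across all 19775 genes. "Rose" and "fell" are used at an adjusted p under 0.05, and values after ± are standard errors. The code was tested on simulated data. Plots were made in Python 3.11.15 (matplotlib 3.10.9).

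The 52 members, the further lists, the motifs and the tests were chosen with earlier results of these data known. In each comparison 12 members (CDK1, CCNB1, CCNB2, AURKA, AURKB, PLK1, FOXM1, TOP2A, MKI67, HMMR, BIRC5 and CENPA) and up to 10 more with the largest passing changes are named. There were 7 processing alternatives: the mean of all probe sets of a gene, no _x_at or _s_at probe sets, median centring, repeated quantile normalization, genes above the median level, a spread from the compared groups only, and moderation by trend with robust estimation. Each array was also left out in turn. Where that left 1 A4 array, it was assumed to vary like the other groups.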

Additional observations from a re-analysis of the deposited data

Results flagged for a closer look

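The DAPT effect differed between the antagonism and the agonism experiment, by a test of the difference itself (limma, 17 residual degrees of freedom), in 7 of the 52 genes, where 6.12% of all genes were called, 2.85% higher. Of the 7 calls 0 held under all 7 processing alternatives, and without single arrays the count was as low as 2. Each difference below is the antagonism change minus the agonism change in log2 units, and each was positive, meaning that the antagonism change was less negative or above 0. NUF2 differed by 0.46 ± 0.12 (adjusted p = 0.0269), with -0.19 in the antagonism and -0.65 in the agonism experiment. CCNB2 differed by 0.40 ± 0.069 (0.00391), PBK by 0.39 ± 0.10 (0.0319), CCNB1 by 0.37 ± 0.068 (0.00452), HMMR by 0.30 ± 0.089 (0.0456), DLGAP5 by 0.28 ± 0.074 (0.029) and BIRC5 by 0.27 ± 0.080 (0.0488), with adjusted p in brackets. PTTG1 and KIF11 missed the threshold on either side of 0, with 0.21 ± 0.065 and -0.35 ± 0.12 (adjusted p = 0.0502 and 0.0822). Plating density, length of DAPT exposure and the presence of IgG differ between the experiments together and cannot be told apart.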

How the results depend on the processing

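For A4 against controls the count of 0 became 1 with the mean of all probe sets, 1 with repeated quantile normalization, 2 among genes above the median level and 7 with trend and robust moderation, all lower. For DAPT against controls it became 1, 1, 5 and 5 under the same choices, all lower. With repeated quantile normalization the calls over all genes rose too, to 25 higher and 28 lower with A4 and to 91 and 78 with DAPT. In the planned test they were 9 and 11 with A4 and 40 and 30 with DAPT. With the spread taken from the compared groups alone the count was 17 for DAPT against DMSO, 4 for IgG against DAPT, 13 for JAG1 against Fc beads, 0 for Fc beads against IgG and 0 when the DAPT effects were compared. A13 against IgG gave 22 with repeated quantile normalization, where 1430 of all genes were higher and 1939 lower, against 1124 and 1784 in the planned test. The 1 call for Fc beads against IgG became 0 with the mean of all probe sets, without _x_at and _s_at probe sets and with median centring, and 4, 4 and 5 with repeated quantile normalization, genes above the median level and trend and robust moderation. The difference of the DAPT effects gave 3 with median centring, where 374 of all genes were higher and 468 lower. Where no count over all genes stands beside a member count in this paragraph, it is not given here. Such a member count cannot be set against the calls over all genes in the same fit. The causes were not tested.

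Signs turned for 3 named values: AURKB in IgG against DAPT (-0.0039 with the mean of all probe sets), CENPF in the same comparison (-0.051 with the mean and -0.54 without _x_at and _s_at probe sets) and TOP2A in A13 against DMSO (-0.14 with the mean). The probe sets added or used instead are dimmer by construction. Every array was left out in turn. The count ranged from 0 to 1 for A4 against controls, 0 to 8 for DAPT against controls (8 without control 2), 0 to 0 for A4 against DAPT, 17 to 28 for DAPT against DMSO, 2 to 12 for IgG against DAPT, 18 to 25 for IgG against DMSO, 9 to 15 for A13 against IgG, 12 to 20 for JAG1 against Fc beads, 0 to 1 for Fc beads against IgG, 21 to 31 for A13 against DMSO, and 0 to 0 for JAG1 against A13. For the difference of the DAPT effects it ranged from 2 to 12, with 2 without antagonism control 1, DMSO array 1, DAPT array 2 or DAPT array 3 of the agonism experiment, 3 without antagonism DAPT array 1 or DMSO array 3, 11 without antagonism control 2 and 12 without DMSO array 2.

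Named members that were called were counted if the call held under all 7 alternatives and also in every fit without 1 array. These were 13 of 15 in DAPT against DMSO, 2 of 10 in IgG against DAPT and 10 of 12 in IgG against DMSO. In A13 against IgG they were 7 of 11, in JAG1 against Fc beads 5 of 12 and in Fc beads against IgG 0 of 1. In A13 against DMSO they were 10 of 14, and in the difference of the DAPT effects 0 of 7. In the fits without 1 array alone, 13, 2, 11, 8, 6, 0, 12 and 2 kept the call, in the same order. The median change of all genes stayed within 0.1 log2 units of 0 under every scaling. No paired analysis was possible because the labels give no replicate numbers.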

Other observations

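The 7 members that passed in none of the 12 comparisons were PLK1, KIF20A, GTSE1, TACC3, ANLN, ECT2 and RACGAP1, named here after their values were seen. How many of all genes passed in none of them is not given here, so the count cannot be read as particular to these members. All 3 genes listed under cytokinesis, which build and position the cleavage furrow, are among them. Their largest values were in the antagonism experiment: with A4 against controls ANLN gave -0.31 ± 0.072, ECT2 -0.27 ± 0.078 and RACGAP1 -0.26 ± 0.072. On A4 arrays ANLN read 12.16 and 12.05, against 12.44, 12.44 and 12.37 in the controls, without overlap. KIF23, listed with the kinesins, also acts in cytokinesis, and it rose with A13 against IgG and with JAG1 against Fc beads.

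The members' other probe sets bear on how far a value depends on the one chosen. The list has 100 probe sets for 52 genes, and 27 genes have more than 1. In DAPT against DMSO the called genes had 32 other probe sets in 18 genes, of which 30 had the same sign, with a median change of -0.37 against -0.32 on those used. In A13 against IgG 12 of 12 and in JAG1 against Fc beads 21 of 22 had the same sign. In A13 against DMSO it was 19 of 23. Probe sets of 1 gene share its transcripts and are not independent.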
